A study of Mus musculus with 2 samples.

Results

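This account covers 77 genes that encode pore-forming and auxiliary subunits of potassium channels and the pore-forming subunits of voltage-gated sodium and calcium channels, measured in single cells of the embryonic mouse forebrain. The members were chosen by gene symbol (the families Kcn, Scn with the ending a, and Cacna1a to Cacna1i) and by a floor. The floor was 20 unique molecular identifiers (UMIs, 1 per captured transcript) in each library. UMIs were summed for it over cells that passed the gene and mitochondrial filters, before doublets were left out. Of 32285 features in the tables, 111 matched the symbols and 77 of these passed the floor. A floor of 10 UMIs would have kept 85 and a floor of 50 would have kept 67. Just inside the floor lay Kcng2 with 20 and 28 UMIs, Scn11a with 23 and 26, Kcnj9 with 30 and 36 and Kcng3 with 50 and 30. Just outside lay Kcnj5 with 18 and 17 UMIs, Kcnk9 with 15 and 17, Kcnk4 with 15 and 29 and Kcnn4 with 14 and 11.

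Voltage-gated sodium channels open on depolarisation and carry the rising phase of the action potential, voltage-gated calcium channels turn depolarisation into calcium entry, and potassium channels repolarise the membrane or hold it at rest. Radial glial cells (RGCs), the progenitors that line the ventricle of the developing cortex, have a negative resting potential and do not fire, and intermediate progenitor cells (IPCs), their Eomes-expressing daughters, divide to give excitatory neurons. Inhibitory interneurons reach the cortex from the ganglionic eminences outside it, most of them from the medial ganglionic eminence (MGE).

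The libraries were 2 samples of 1 group, labelled WT replicate 2 and WT replicate 4, from mice of the line given as EomesDot, described in the series title as an Eomes-Cre line, at embryonic day 14.5. No mutant or treated sample entered, so the comparisons are between cell classes within these libraries. The dorsal telencephalon, which the tissue label gives as brain hemispheres, was dissociated with papain and captured with a droplet method that counts the 3′ ends of transcripts. Nothing in the labels says whether the replicates came from separate animals or litters. The sample titles share a number before the replicate digit, and what that number stands for is not stated. Each p-value below therefore measures only the spread between these libraries, which may be technical. The study's methods name C57BL/6J mice and do not say how these relate to the EomesDot label.

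Of 4301 deposited barcodes, 3153 cells were retained, 1197 in replicate 2 with a median of 30810 UMIs and 1956 in replicate 4 with a median of 22948.5 UMIs. Cells were grouped into 25 clusters without use of the member genes, and clusters were named from marker lists, with "-like" for a name given here and not by the authors. Cells called RGC-like numbered 261 and 447 (replicates 2 and 4), IPC-like 187 and 305, excitatory neuron-like 518 and 789, and MGE interneuron-like 54 and 84. The RGC marker list summed to 5980 and 5274 UMIs per 1000000 UMIs (CPM) in RGC-like cells against 282 and 289 in excitatory neuron-like cells, and the MGE list to 29600 and 29810 CPM in MGE interneuron-like cells against 112 and 169. The MGE list also summed to 22680 and 20670 CPM in interneuron-like cells of the caudal ganglionic eminence (CGE), where its members Lhx6, Nkx2-1, Sst and Npy were at 0, so its sum alone does not set these classes apart. The CGE list summed to 15960 and 12620 CPM in the CGE class and to 78.7 and 118 CPM in the MGE class. The IPC list summed to 2913 and 2963 CPM in IPC-like cells against 496 and 467 in RGC-like and 470 and 512 in excitatory neuron-like cells. The excitatory neuron list summed to 7519 and 7650 CPM in excitatory neuron-like cells, to 2049 and 2400 CPM in IPC-like cells, to 1777 and 1796 CPM in MGE interneuron-like cells and to 565 and 647 CPM in RGC-like cells. Its sum in IPC-like cells was thus not far under that of the IPC list, and its part in the comparisons with IPC-like and MGE interneuron-like cells was not tested. In progenitors the MGE list summed to 1884 and 1936 CPM (RGC-like) and to 1375 and 1324 CPM (IPC-like). Of its 10 markers only Nkx2-1 was at 0 in both progenitor classes and in the excitatory neuron-like class. Erythroid genes summed to 77.3 CPM in the RGC-like cells of replicate 2 and to 2310 CPM in those of replicate 4; their part in the results was not tested. The libraries shared 3 barcodes, 1 of them among the retained cells.

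Levels below are CPM in the UMIs summed over 1 class in 1 library, given for replicate 2 and then replicate 4, and fold changes are log2 values with their standard errors from edgeR's quasi-likelihood test over 7 classes, with Benjamini-Hochberg adjustment over 12292 genes. Genes with an adjusted p under 0.05 were called. Of the 77 members, 51 passed the count filter over the sums of these 7 classes and were tested, and 26 did not. A member that passed this filter through 1 class had to differ between classes, so counts over the 51 describe the tested members and are not evidence about the rest.

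The upstream sequences of 4 leading members are printed to show where their transcripts start: a pair that was highest in progenitors and a pair that differed between neuron types. RefSeq (GRCm38.p6, which is mm10) held a start with its flanking sequence for 53 of the 77 members and none was looked up for the other 24. For 25 of the 53 the window adjoined the outer 5′ end of the gene, and for 28 it lay at a start inside the gene's span. The windows below are the 250 bases before the outermost start, 5′ to 3′ on the gene's own strand. Kcnk5 (ENSMUSG00000023243, chr14:20181783-20182032, minus strand) and Kcnj10 (ENSMUSG00000044708, chr1:172340960-172341209, plus strand) were higher in RGC-like cells than in neurons. Kcnh8 (chr17:52602459-52602708, plus strand) was higher in interneurons than in excitatory neuron-like cells, and Kcnh5 (chr12:75177333-75177582, minus strand) was lower. Capitals mark the only match to 4 searched motifs, CATCTG, the reverse strand of the E-box CAGATG.
Kcnk5: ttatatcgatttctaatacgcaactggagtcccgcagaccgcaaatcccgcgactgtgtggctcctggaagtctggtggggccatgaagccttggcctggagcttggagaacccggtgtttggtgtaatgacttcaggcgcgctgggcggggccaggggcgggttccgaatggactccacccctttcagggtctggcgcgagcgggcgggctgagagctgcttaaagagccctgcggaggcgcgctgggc
Kcnj10: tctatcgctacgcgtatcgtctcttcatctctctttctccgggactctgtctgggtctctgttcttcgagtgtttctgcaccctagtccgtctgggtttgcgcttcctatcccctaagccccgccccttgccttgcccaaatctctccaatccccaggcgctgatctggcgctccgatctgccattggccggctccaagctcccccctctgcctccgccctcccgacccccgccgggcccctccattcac
Kcnh8: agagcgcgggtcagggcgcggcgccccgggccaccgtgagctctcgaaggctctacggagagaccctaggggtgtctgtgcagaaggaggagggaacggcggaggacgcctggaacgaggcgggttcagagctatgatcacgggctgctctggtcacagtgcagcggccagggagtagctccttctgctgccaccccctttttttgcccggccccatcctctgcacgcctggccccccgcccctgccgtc
Kcnh5: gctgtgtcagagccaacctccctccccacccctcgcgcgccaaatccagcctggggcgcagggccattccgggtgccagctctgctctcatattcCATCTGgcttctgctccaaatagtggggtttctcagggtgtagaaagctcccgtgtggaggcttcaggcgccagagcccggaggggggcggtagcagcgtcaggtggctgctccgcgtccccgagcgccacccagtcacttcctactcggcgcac

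The motifs, each searched on both strands, were the E-box, TATAAA, the cAMP response element TGACGTCA and TTCAGCACC, a stretch of the RE1 element. The E-box was in 7 of the 53 member windows (13.2%) and in 14.5% of the windows of 27025 genes. TATAAA was in 3 member windows (5.66%) against 13% of all, and the other motifs were in no member window against 1.6% and 0.292% of all. Among the 26 members with a window that were higher in excitatory neuron-like than in RGC-like cells, Kcnh5 held the E-box and Cacna1d held TATAAA. The median GC content was 60% over member windows and 52% over all windows. A match describes the letters of the window only.

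The first comparison asked which channel genes differed between the start and the end of the excitatory lineage, RGC-like and excitatory neuron-like cells. Excitatory neuron-like cells had more of nearly every kind of channel tested: sodium channels, calcium channels of each type, most potassium channels of the Kv families and the calcium-activated channels. Of the 51 tested members 38 were called higher, where 25.3% of all genes tested were, and 4 were called lower, where 30% of all genes were. The median log2 fold change was 2.66 over the tested members and -0.07 over all genes tested. With every gene that had a UMI kept in the fit, 49 of 77 members were higher and 10 lower, where 15.8% and 17.3% of 24771 genes were. Member UMIs made up 0.190% and 0.202% of UMIs in RGC-like cells and 0.646% and 0.667% in excitatory neuron-like cells.

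**Figure D1:**
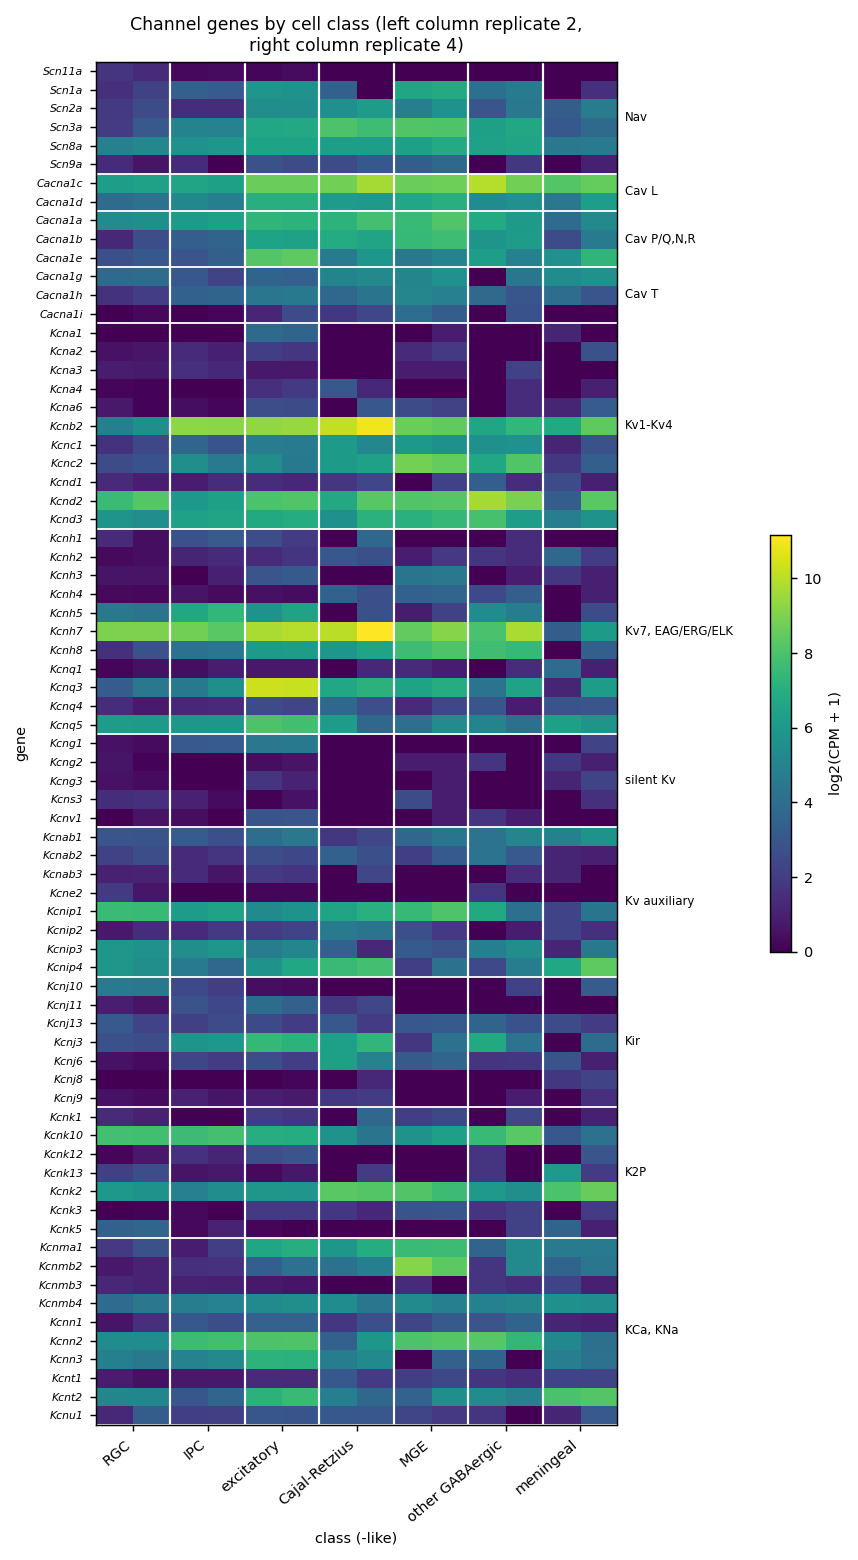
Heat map of the levels of 73 members, with genes in rows by channel group and class and library in columns, coloured by log2 of CPM with 1 added, for the 7 classes of the fit. The excitatory neuron-like and interneuron columns are brighter than the RGC-like and IPC-like columns for most rows, while Kcnj10 and Kcnk5 are brighter in RGC-like cells, at 22.6 and 21.6 CPM and at 9.87 and 11.6 CPM.

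All 5 sodium channel alpha subunits that were tested were higher in excitatory neuron-like cells. With every gene kept, 5 of the 7 members of this group were higher and 2 lower, where 15.8% and 17.3% of all genes were. Of the 5 tested genes, 4 stand in 1 run on chromosome 2 (Scn3a, Scn2a, Scn1a and Scn9a, chr2:65457118-66635114), and Scn8a lies on chromosome 15. Scn3a, the main sodium channel of the embryonic brain, was at 2.98 and 7.61 CPM in RGC-like cells and 103 and 105 CPM in excitatory neuron-like cells. The classes did not overlap, and the log2 fold change was 4.37 ± 0.32 (adjusted p = 6.48e-07). Scn1a, which in the adult is prominent in fast-spiking interneurons, rose from 1.95 and 3.64 CPM to 55.4 and 50.6 CPM (4.32 ± 0.34, adjusted p = 1.17e-06). Scn2a, found in the axon initial segment of excitatory neurons, rose from 2.75 and 4.91 CPM to 45.4 and 44.8 CPM (3.64 ± 0.38, adjusted p = 9.12e-06). In excitatory neuron-like cells the libraries were close for these 3 genes. Scn8a, the adult channel of nodes and initial segments, was already at 27.8 and 34.9 CPM in RGC-like cells and was at 89.0 and 88.3 CPM in excitatory neuron-like cells (1.62 ± 0.18, adjusted p = 1.27e-05). Scn9a stayed low, at 1.49 and 0.508 CPM and then 5.86 and 4.98 CPM (2.60 ± 0.69, adjusted p = 0.00739), and its call was lost on split UMIs, where clusters came from a random share of each cell's UMIs and the test from the rest (adjusted p = 0.107), and when doublets were kept (adjusted p = 0.0686). Scn11a, known from sensory neurons, did not pass the filter, at 2.29 and 1.52 CPM in RGC-like cells and 0.109 and 0.244 CPM in excitatory neuron-like cells.

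Of the 8 calcium channel alpha-1 subunits tested, 7 were higher in excitatory neuron-like cells and Cacna1g was not called. Among the L-type subunits, which couple depolarisation to transcription, Cacna1c was at 72.9 and 81.8 CPM in RGC-like cells and 409 and 393 CPM in excitatory neuron-like cells (2.50 ± 0.36, adjusted p = 0.000106). Cacna1d was at 14.2 and 16.7 CPM and then at 132 CPM in both libraries (3.22 ± 0.34, adjusted p = 9.75e-06). Both subunits were well apart between the classes, and neither was at 0 in progenitors.

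Presynaptic calcium channel subunits rose as well. Cacna1e, the R-type subunit, was at 5.62 and 7.36 CPM in RGC-like cells and at 286 and 338 CPM in excitatory neuron-like cells (5.70 ± 0.54, adjusted p = 4.24e-06). Cacna1b, the N-type subunit, rose from 1.38 and 5.24 CPM to 87.9 and 83.9 CPM (4.75 ± 0.46, adjusted p = 5.09e-06). Cacna1a, the P/Q-type subunit, started higher, at 40.7 and 46.4 CPM, and reached 157 and 151 CPM (1.94 ± 0.31, adjusted p = 0.000265). The classes did not overlap for any of the 3 genes. Among the low-threshold T-type subunits, Cacna1h rose from 2.07 and 3.05 CPM to 19.7 and 22.1 CPM (3.12 ± 0.27, adjusted p = 2.20e-06). Cacna1i was nearly absent from RGC-like cells, at 0 and 0.169 CPM, and was at 1.30 and 4.79 CPM in excitatory neuron-like cells (4.82 ± 1.05, adjusted p = 0.00276). Cacna1g was at 13.0 and 14.4 CPM in RGC-like cells and 11.0 and 9.67 CPM in excitatory neuron-like cells.

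**Figure D2:**
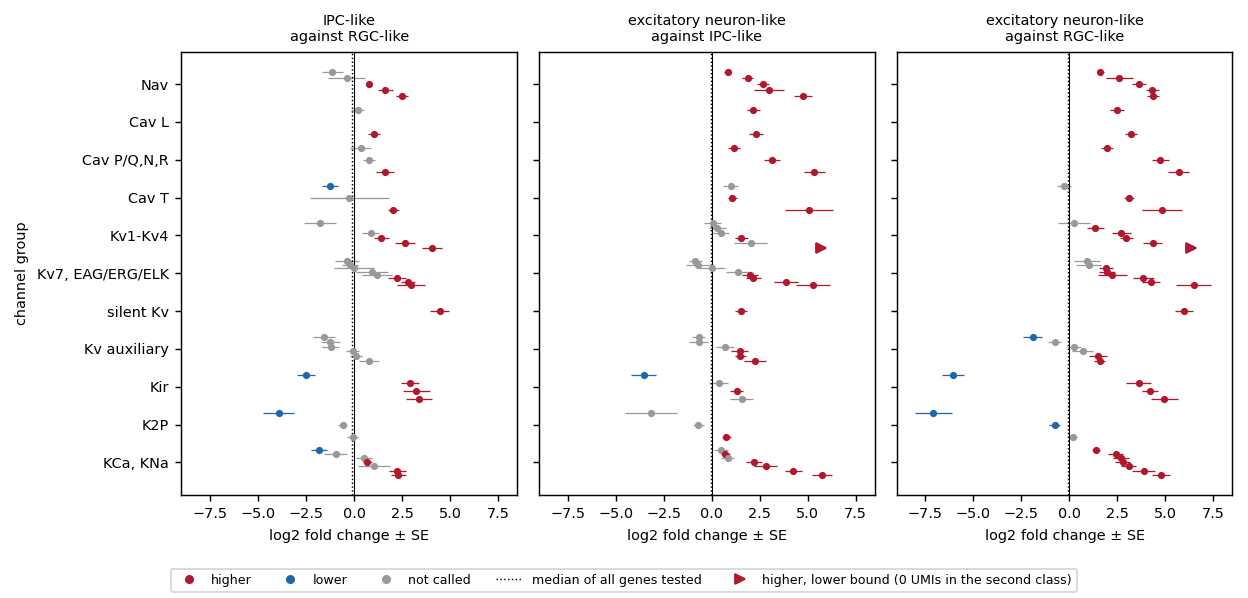
Log2 fold change with its standard error (x axis) for 48 tested members, by channel group (y axis), in 3 comparisons, with red points called higher, blue points called lower and grey points not called. The dotted line is the median of all genes tested; a triangle is a lower bound for Kcna1, which had 0 UMIs in the second class, and Kcna1 is left out of the IPC-like against RGC-like panel, where both classes had 0. Most points of the excitatory neuron-like against RGC-like panel lie right of 0, and Kcnk5 and Kcnj10 lie farthest left, at -7.08 and -6.06.

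Among the Kv1 to Kv4 alpha subunits, which form the delayed rectifier and A-type channels, 6 of the 8 tested of 13 members were higher in excitatory neuron-like cells. Kcna1, the Kv1.1 subunit, had 464 UMIs in excitatory neuron-like cells (13.0 and 11.0 CPM) and none in RGC-like cells, which made it at least 81.7-fold higher against a floor of 3 counts over both libraries (adjusted p = 4.87e-05; 0.0564 with DESeq2). Kcnb2, the Kv2.2 subunit, rose from 27.4 and 45.8 CPM to 654 and 706 CPM (4.34 ± 0.51, adjusted p = 2.47e-05). The classes did not overlap. The Kv3 subunits, which let adult interneurons fire fast, rose from lower starting points. Kcnc1 was at 2.07 and 4.40 CPM and then 25.7 and 22.4 CPM (2.97 ± 0.35), and Kcnc2 at 4.93 and 6.01 CPM and then 44.8 and 21.7 CPM (2.71 ± 0.51). The Kcnc2 call was lost on split UMIs (log2 value 0.82, adjusted p = 0.161). Kcnd2, a Kv4 subunit, was not called, and its libraries overlapped between the classes, at 193 and 300 CPM against 260 and 280 CPM.

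Most Kv7, EAG, ERG and ELK subunits were also higher in excitatory neuron-like cells. Kcnq3 encodes a Kv7 subunit of the M-current, which damps repetitive firing, and it rose from 8.49 and 21.5 CPM in RGC-like cells to 1278 and 1196 CPM in excitatory neuron-like cells (6.47 ± 0.92, adjusted p = 0.000107). Kcnq5, another Kv7 subunit, rose from 69.4 and 65.4 CPM to 264 and 219 CPM (1.97 ± 0.40, adjusted p = 0.00149). Of the EAG, ERG and ELK subunits, Kcnh8 rose from 1.84 and 5.75 CPM to 67.8 and 69.8 CPM (4.24 ± 0.47, adjusted p = 1.41e-05) and Kcnh5 from 21.5 and 18.2 CPM to 53.2 and 84.4 CPM (1.93 ± 0.36, adjusted p = 0.000756; log2 value 0.80 and 0.0844 on split UMIs). Kcnh1 and Kcnh3 were also higher, Kcnh1 not with DESeq2 (adjusted p = 0.112). Kcnh7, an ERG subunit, was abundant in both classes and not called, at 500 and 493 CPM and 862 and 972 CPM. Over this group 7 of the 9 tested members were higher and none was lower.

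In single cells thinned to 5000 UMIs each, Kcnq3 was seen in 81.7% and 82.5% of excitatory neuron-like cells and in 2.85% and 5.94% of RGC-like cells. Without thinning the shares were 90.9% and 91.0%, and 8.43% and 11.0%. In meningeal-like cells, a fibroblast class used here as the background for a neuronal gene, the thinned shares were 0% of 19 cells and 5.88% of 34 cells. The RGC-like shares were thus near those of that background, and the excitatory neuron-like shares were far above it.

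Kcng1, which encodes a silent Kv6 subunit that works only in channels with Kv2 subunits, rose from 0.459 and 0.254 CPM to 20.3 and 21.9 CPM (5.98 ± 0.45, adjusted p = 8.26e-06). It was the only silent subunit of 5 members that passed the filter. Among the auxiliary subunits, Kcnab1 (1.59 ± 0.28, adjusted p = 0.000548) and Kcnip2 (1.48 ± 0.46, adjusted p = 0.0175) were higher, and 2 alternatives ended the Kcnip2 call (adjusted p up to 0.173). Kcnip1, a calcium-binding KChIP subunit of Kv4 channels, was lower, at 193 and 183 CPM in RGC-like cells and 39.9 and 51.4 CPM in excitatory neuron-like cells (-1.91 ± 0.50, adjusted p = 0.00687). Without the RGC-like cluster led by Ttr, a choroid plexus and hem marker, the log2 value was -1.06 (adjusted p = 0.0946), and 2 other alternatives also ended the call. In that cluster Kcnip1 averaged 592 CPM, against 55.2 to 140 CPM in the other 3 RGC-like clusters. Kcnip4 was not called, at 59.8 and 45.1 CPM and 52.8 and 103 CPM.

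Inward rectifiers split by subunit. Kcnj10 encodes Kir4.1, the glial channel that sets a negative resting potential, and was at 22.6 and 21.6 CPM in RGC-like cells and 0.326 and 0.244 CPM in excitatory neuron-like cells (-6.06 ± 0.58, adjusted p = 1.74e-05). The G protein-gated subunits Kcnj3 and Kcnj6 went the other way. Kcnj3 rose from 5.85 and 5.33 CPM to 171 and 146 CPM (4.95 ± 0.70, adjusted p = 0.000107), and Kcnj6 from 0.459 and 0.254 CPM to 5.16 and 3.08 CPM (3.62 ± 0.64, adjusted p = 0.000558). Kcnj11, the pore subunit of the ATP-sensitive channel, rose from 0.918 and 0.508 CPM to 14.3 and 9.87 CPM (4.21 ± 0.42, adjusted p = 4.52e-05).

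K2P channels, with 2 pore domains in each subunit, carry background potassium current, and the 3 tested of 7 members held no gene that was higher in excitatory neuron-like cells. With every gene kept, 2 of the 7 members were higher and 3 lower, and the median log2 value changed sign, from -0.76 over the 3 tested to 0.23 over the 7. Kcnk5, an acid-sensitive TASK-2 channel, was at 9.87 and 11.6 CPM in RGC-like cells and had 2 UMIs in all excitatory neuron-like cells (0.109 and 0 CPM, -7.08 ± 0.95, adjusted p = 0.000169). Kcnk10, the TREK-2 channel, was at 227 and 223 CPM and at 124 and 120 CPM (-0.76 ± 0.29, adjusted p = 0.0437), and 7 of 14 alternatives ended this call (adjusted p up to 0.272). Kcnk2, the TREK-1 channel, was not called, at 61.3 and 50.7 CPM and 60.1 and 55.5 CPM, and its libraries overlapped.

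All 7 tested calcium- and sodium-activated subunits were higher in excitatory neuron-like cells. Kcnma1, the pore of the large-conductance BK channel, rose from 2.64 and 5.75 CPM to 97.5 and 122 CPM (4.79 ± 0.47, adjusted p = 5.91e-06). The small-conductance channels Kcnn2 and Kcnn3 rose from 42.7 CPM in both libraries to 265 and 275 CPM (2.79 ± 0.39) and from 27.1 and 21.2 CPM to 148 and 141 CPM (2.71 ± 0.42). Kcnt2, a sodium-activated channel, rose from 34.3 CPM in both libraries to 145 and 192 CPM (2.42 ± 0.39, adjusted p = 0.000260).

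Long genes and ribosomal protein genes also differed between these classes. Genes spanning 100 kb or more held 26.5% and 27.2% of UMIs in RGC-like cells and 35.3% and 37.5% in excitatory neuron-like cells, and ribosomal protein genes held 11.6% and 10.9% and then 7.40% and 6.42%. Of the 77 members 34 span at least 100 kb. Of the long genes tested 35.1% were higher in excitatory neuron-like cells, and of the long members tested 27 of 33 were. Of the shorter members 11 of 18 were higher, where 23.2% of the shorter genes were. The part of gene length or RNA composition in the members' values was not tested.

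The IPC-like class stands between these ends, and the question was where along the lineage each gene differed. From RGC-like to IPC-like cells 20 of the 51 tested members were called higher, where 14.0% of all genes were, and 5 were called lower, where 20.1% were. On split UMIs 13 of 44 tested members were higher and 8 lower, where 13.0% and 19.0% of all genes were. From IPC-like to excitatory neuron-like cells 32 were called higher, where 18.4% of all genes were, and 1 was called lower, where 18.2% were, or 2 with the library as a block. The median log2 fold changes were 0.78 and 1.49 over the tested members and -0.08 and -0.03 over all genes. Over all 77 members, with every gene kept, they were 0.24 and 1.385. With every gene kept, 26 of 77 members were higher and 14 lower in the first step, where 8.31% and 11.6% of all genes were. In the second step 45 were higher and 7 lower, where 11.2% and 9.91% of all genes were. In the first step 13 of the 33 long members were higher, where 16.6% of the long genes were, and in the second 21, where 32% were. These comparisons share the IPC-like cells, so each gene's values are given side by side.

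**Figure D3:**
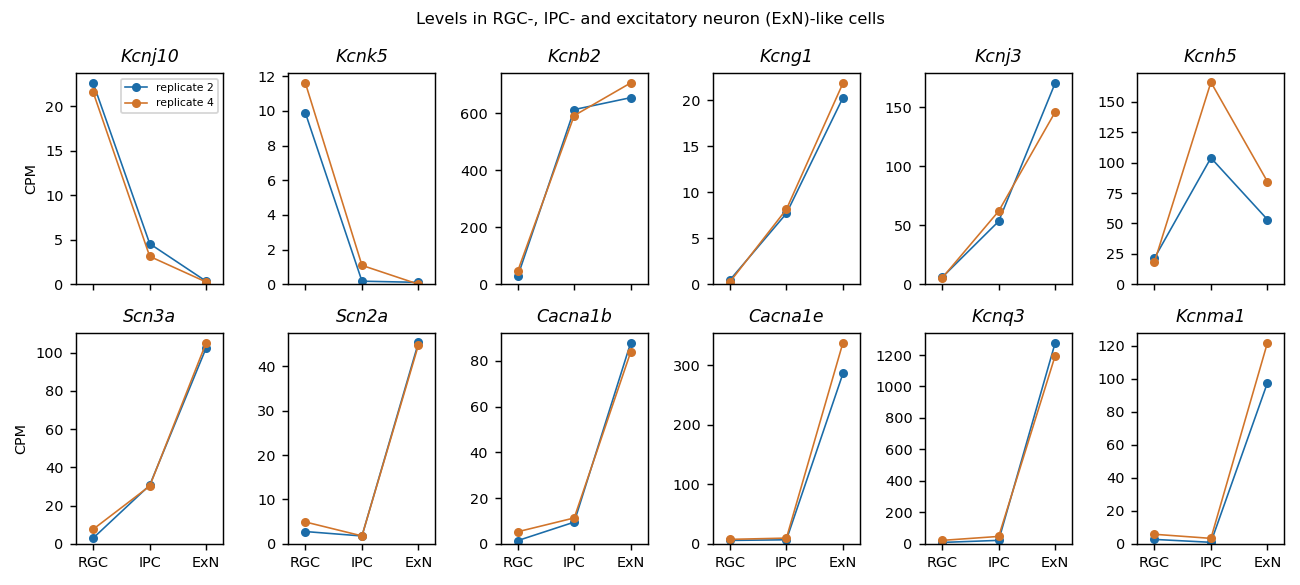
Level in CPM (linear y axis from 0, its own scale in each panel) of 12 members in excitatory neuron-like (ExN) cells and both progenitor classes (x axis), with a line for each library. Kcnb2 is at 612 and 591 CPM in IPC-like cells, close to its excitatory neuron-like level, while Cacna1e is at 6.66 and 9.52 CPM in IPC-like cells, close to its RGC-like level.

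Some members were high as soon as cells were IPC-like. Kcnb2 was at 612 and 591 CPM there, well apart from the RGC-like level (4.05 ± 0.50, adjusted p = 0.000134), and was not called between IPC-like and excitatory neuron-like cells. In cells thinned to 5000 UMIs, Kcnb2 was seen in 8.13% and 9.74% of RGC-like, 64.6% and 66.8% of IPC-like and 76.1% and 77.4% of excitatory neuron-like cells. Without thinning the shares were 14.6% and 15.7%, 75.9% and 76.7%, and 91.3% and 89.9%. Meningeal-like cells showed Kcnb2 in 21.1% and 55.9% of thinned cells, so this class was no clean background for that gene, and the RGC-like shares lay below it.

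Kcnn2 was at 199 and 219 CPM in IPC-like cells (2.31 ± 0.39, adjusted p = 0.000893), and Kcnh5 at 104 and 166 CPM, its highest among the 3 lineage classes (2.79 ± 0.37, adjusted p = 0.000189). Kcnh1, another EAG subunit, rose from 1.61 and 0.338 CPM to 5.96 and 8.30 CPM (2.97 ± 0.75, adjusted p = 0.0138). None of these was called higher in the second step. Kcnc2 was at 46.9 and 22.7 CPM in IPC-like cells (2.67 ± 0.52, adjusted p = 0.00225) and Kcnj6 at 4.03 and 2.86 CPM (3.25 ± 0.70, adjusted p = 0.00418). The Kcnj6 call was lost on split UMIs (adjusted p = 0.489) and without the 2 IPC-like clusters that had Slc17a6, a glutamate transporter gene of neurons, among their 10 leading genes (adjusted p = 0.134).

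A second set was called higher at both steps. Scn3a was at 30.7 and 30.2 CPM in IPC-like cells (2.50 ± 0.31, adjusted p = 0.000134) and rose again to excitatory neuron-like cells (1.88 ± 0.28, adjusted p = 0.000287). The second call was lost at a clustering resolution of 0.5 (adjusted p = 0.334). Scn8a was at 48.5 and 58.0 CPM (0.78 ± 0.18, adjusted p = 0.00530, then 0.84 ± 0.17, adjusted p = 0.00276), and Cacna1h at 10.2 and 11.0 CPM (2.04 ± 0.29, adjusted p = 0.000331, then 1.08 ± 0.24, adjusted p = 0.00406). Each of these levels lay between those of the other classes without overlap. Kcng1 was at 7.71 and 8.16 CPM (4.47 ± 0.50, adjusted p = 0.000263, then 1.51 ± 0.31, adjusted p = 0.00541), and Kcnj11 at 6.31 and 4.35 CPM (2.92 ± 0.46, adjusted p = 0.00159, then 1.29 ± 0.34, adjusted p = 0.0174). Kcnj3 was at 53.4 and 62.0 CPM (3.39 ± 0.68, adjusted p = 0.00273) and was not called in the second step.

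Scn1a was at 9.63 and 8.16 CPM in IPC-like cells (1.64 ± 0.38, adjusted p = 0.00643, then 2.68 ± 0.31, adjusted p = 5.28e-05). Its first call was lost on split UMIs (adjusted p = 0.325) and its second at resolution 0.5 (adjusted p = 0.102). Cacna1b was at 9.46 and 11.3 CPM (1.60 ± 0.48, adjusted p = 0.0223, then 3.14 ± 0.42, adjusted p = 0.000142), and its first call was lost on split UMIs (adjusted p = 0.855) and without the IPC-like clusters with Slc17a6 (adjusted p = 0.503). Cacna1d was at 35.7 and 27.3 CPM (1.04 ± 0.33, adjusted p = 0.0305, then 2.18 ± 0.32, adjusted p = 0.000304). The first Cacna1d call was lost at resolution 0.5 (adjusted p = 0.0609).

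Other members were not called in the first step and were called higher in the second. Kcnq3 was at 21.5 and 46.7 CPM in IPC-like cells, not called against RGC-like cells, and was higher in excitatory neuron-like cells by 5.27 ± 0.87 (adjusted p = 0.000628). Cacna1e was at 6.66 and 9.52 CPM (5.36 ± 0.54, adjusted p = 1.98e-05) and Kcnma1 at 0.876 and 3.26 CPM (5.74 ± 0.53, adjusted p = 1.16e-05). Whether the steps differ in size was not tested. Scn2a was at 1.75 and 1.77 CPM (4.76 ± 0.45, adjusted p = 1.38e-05), Cacna1c at 92.3 and 80.7 CPM (2.32 ± 0.35, adjusted p = 0.000368), Cacna1a at 67.3 and 81.2 CPM (1.15 ± 0.31, adjusted p = 0.0118) and Kcnq5 at 56.9 and 57.8 CPM (2.18 ± 0.41, adjusted p = 0.00155). The Cacna1a call was lost with doublets kept (adjusted p = 0.105) and the Kcnq5 call in 2 alternatives (adjusted p up to 0.0611). Kcnh3, an ELK subunit, was at 0 and 0.952 CPM (3.87 ± 0.61, adjusted p = 0.000631), Scn9a at 1.58 and 0 CPM (2.99 ± 0.79, adjusted p = 0.0112; lost in 2 alternatives, up to 0.119) and Cacna1i at 0 and 0.136 CPM (5.07 ± 1.24, adjusted p = 0.00866). Kcna1 had no UMI in IPC-like cells and was at least 51.9-fold higher in excitatory neuron-like cells (adjusted p = 0.000190; 0.101 with DESeq2).

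Members called lower from RGC-like to IPC-like cells were led by Kcnk5 and Kcnj10. Kcnk5 fell to 0.175 and 1.09 CPM (-3.92 ± 0.81, adjusted p = 0.00499), and Kcnj10 to 4.55 and 3.13 CPM (-2.51 ± 0.47, adjusted p = 0.00304) and again into excitatory neuron-like cells (-3.54 ± 0.66, adjusted p = 0.00247). In unthinned cells Kcnj10 was seen in 41.8% and 32.9% of RGC-like, 10.2% and 5.25% of IPC-like and 0.965% and 0.634% of excitatory neuron-like cells. At 5000 UMIs the shares were 9.35% and 9.26%, 0.552% and 1.02%, and 0.195% and 0.131%, and meningeal-like cells gave 0% and 2.94%. The IPC-like and excitatory neuron-like shares both lay within that range. The meningeal-like class was no clean background for Kcnj10 either, with 0 and 8.61 CPM against 0.326 and 0.244 CPM in excitatory neuron-like cells.

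Kcnt2 and Cacna1g were lower in IPC-like than in RGC-like cells and were not called lower in excitatory neuron-like than in RGC-like cells. Kcnt2 was at 7.01 and 11.6 CPM in IPC-like cells (-1.84 ± 0.42, adjusted p = 0.00598) and rose by 4.26 ± 0.44 into excitatory neuron-like cells (adjusted p = 2.50e-05). Cacna1g was at 7.53 and 3.95 CPM (-1.26 ± 0.40, adjusted p = 0.0308). The Kcnt2 call in IPC-like cells was lost in 2 of 14 alternatives (adjusted p up to 0.0725) and the Cacna1g call in 7 (up to 0.374). Kcnip4 was at 23.1 and 12.5 CPM in IPC-like cells and rose into excitatory neuron-like cells (2.25 ± 0.58, adjusted p = 0.0103; 0.0742 at resolution 0.5), as did Kcnk2 from 28.4 and 44.1 CPM (0.77 ± 0.25, adjusted p = 0.0316; lost in 5 alternatives, adjusted p up to 0.214). Kcnd2, at 61.5 and 80.7 CPM, and Kcnh7, at 443 and 313 CPM, were called in neither step.

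Levels also varied among the 7 excitatory neuron-like clusters, described here by their mean CPM over both libraries and without a test. Kcnq3 was above 500 CPM in each, from 567 CPM in the cluster led by Unc5d and Slc17a6 to 2045 CPM in a cluster led by Lrfn5 and Rgs6. Cacna1e ranged more widely, from 15.6 CPM in the Unc5d-led cluster to 954 CPM in the cluster led by Rgs6 and Lrfn5. Scn1a was at 95.2 CPM in the Unc5d-led cluster and at 4.95 CPM in the Rgs6-led cluster, so Cacna1e and Scn1a were ordered oppositely between these clusters. Kcna1 ranged from 0.439 CPM in the Unc5d-led cluster to 27.5 CPM in the cluster led by Lrfn5 and Rgs6. Kcnip4 was at 317 CPM in the cluster led by Tafa1 and at 333 CPM in the Rgs6-led cluster, and at 64.9 CPM or less in the other 5. Among the 4 IPC-like clusters, Cacna1c was at 328 CPM in the cluster led by Neurod1 and at 12.6 to 46.8 CPM in the others, and in the test of IPC-like against RGC-like cells its value changed sign without the clusters with Slc17a6, of which the Neurod1-led cluster is 1.

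The last tested comparison set MGE interneuron-like against excitatory neuron-like neurons and asked how the channel genes differ between the inhibitory and the excitatory lineage. Interneurons had more of the Kv3 subunits Kcnc1 and Kcnc2, BK subunit Kcnmb2, Kcnh4, Kcnh8, Scn1a and Scn3a, and less of Kcnq3, Kcnq5, Kcnh5, Cacna1e and G protein-gated Kcnj3. Of the 51 tested members 10 were higher in MGE interneuron-like cells, where 8.32% of all genes were, and 12 were lower, where 10.8% were. The median log2 fold change was 0.10 over the tested members and -0.02 over all genes. With every gene kept, 15 of 77 members were higher and 19 lower, where 4.83% and 7.12% of all genes were. The median then changed sign, to -0.27 over the 77 members, and was -0.16 over all genes. The MGE interneuron-like cells were shallower, with medians of 23450.5 and 10737 UMIs against 34773.5 and 25101, and ribosomal protein genes held 4.33% and 3.14% of their UMIs. Genes of 100 kb or more held 41.2% and 43.4%. Of the long genes tested 17.2% were higher in interneurons and 16.1% lower, shares nearer to those of the long members, 7 and 8 of 33. Of the shorter members 3 of 18 were higher and 4 lower, where 6.04% and 9.77% of the shorter genes were. The part of depth and of RNA composition in the differences was not tested.

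**Figure D4:**
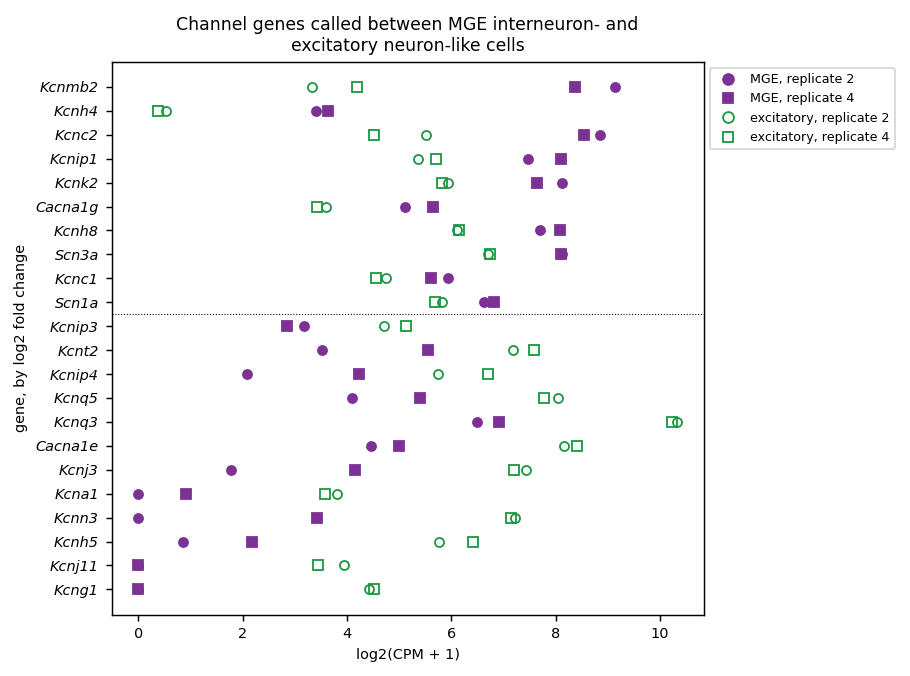
Log2 of CPM with 1 added (x axis) in MGE interneuron-like and excitatory neuron-like cells for the members called in this comparison (y axis, by fold change), with circles for replicate 2 and squares for replicate 4. Genes above the dotted line are higher in interneurons. Kcnmb2 is at 559 and 331 CPM in MGE interneuron-like cells against 9.06 and 17.2 CPM, and Kcnq3 at 89.1 and 119 CPM against 1278 and 1196 CPM.

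Kcnmb2, the inactivating beta2 subunit of BK channels, was at 559 and 331 CPM in MGE interneuron-like cells and 9.06 and 17.2 CPM in excitatory neuron-like cells (5.06 ± 0.49, adjusted p = 3.86e-05). Its pore partner Kcnma1 was not called, at 194 and 201 CPM and 97.5 and 122 CPM. At 5000 UMIs, Kcnmb2 was seen in 64.2% (34 of 53 cells) and 50% (38 of 76 cells) of MGE interneuron-like cells and 4.47% and 6.27% of excitatory neuron-like cells, and in 5.26% and 5.88% of meningeal-like cells. Without thinning the neuronal shares were 77.8% and 53.6%, and 7.92% and 9.89%. The excitatory neuron-like share was at the meningeal-like level. Within that class, Kcnmb2 averaged 81.6 CPM in the Tafa1-led cluster and 1.14 to 15.3 CPM in the other 6 clusters. In the MGE interneuron-like cells it averaged 587 CPM in the sub-cluster with Sst among its leading genes and 202 CPM in the other.

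Kcnc2 was at 458 and 370 CPM in MGE interneuron-like cells and 44.8 and 21.7 CPM in excitatory neuron-like cells (3.63 ± 0.48, adjusted p = 0.000342), and Kcnc1 at 60.2 and 47.6 CPM and 25.7 and 22.4 CPM (1.16 ± 0.33, adjusted p = 0.0287). Kcnh4, an ELK subunit, was at 9.64 and 11.5 CPM in interneurons against 0.434 and 0.293 CPM (4.78 ± 0.53, adjusted p = 0.000101). Kcnh8 was at 206 and 272 CPM against 67.8 and 69.8 CPM (1.78 ± 0.39, adjusted p = 0.00859). In each case the lower interneuron library was above the higher excitatory library. Kcnip1 was at 177 and 275 CPM against 39.9 and 51.4 CPM (2.29 ± 0.52, adjusted p = 0.00977), and Kcnk2 at 278 and 199 CPM against 60.1 and 55.5 CPM (2.04 ± 0.26, adjusted p = 0.000243). Cacna1g was at 33.7 and 49.4 CPM against 11.0 and 9.67 CPM (1.99 ± 0.39, adjusted p = 0.00451).

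Scn3a was at 278 and 275 CPM in MGE interneuron-like cells (1.40 ± 0.27, adjusted p = 0.00375; 0.0609 with the members kept for clustering) and Scn1a at 97.2 and 112 CPM (0.97 ± 0.28, adjusted p = 0.0343). The Scn1a call was lost in 3 alternatives (adjusted p up to 0.148). Scn2a was at 26.5 and 52.0 CPM, Scn8a at 81.1 and 112 CPM and Scn9a at 8.83 and 12.3 CPM, and none of the 3 was called. Both L-type subunits were at near the excitatory level without a call, Cacna1c at 407 and 411 CPM and Cacna1d at 103 and 130 CPM. Cacna1a at 192 and 279 CPM, Cacna1b at 177 and 208 CPM, Cacna1h at 35.3 and 28.2 CPM and Cacna1i at 15.3 and 8.82 CPM were not called either.

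Lower members included subunits of the M-current. Kcnq3 was at 89.1 and 119 CPM (-3.58 ± 0.82, adjusted p = 0.0102) and Kcnq5 at 16.1 and 41.4 CPM (-3.09 ± 0.48, adjusted p = 0.000967). At 5000 UMIs Kcnq3 was seen in 30.2% and 28.9% of MGE interneuron-like cells. Unthinned, the shares were 51.9% and 34.5%. Cacna1e was at 20.9 and 30.9 CPM (-3.61 ± 0.53, adjusted p = 0.000696), Kcnh5 at 0.803 and 3.53 CPM (-5.03 ± 0.68, adjusted p = 0.000383) and Kcnj3 at 2.41 and 16.7 CPM (-4.09 ± 0.83, adjusted p = 0.00507). The Kcnj3 libraries stood apart from each other but both lay under the excitatory neuron-like levels of 171 and 146 CPM.

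Kcnn3 was at 0 and 9.70 CPM (-4.96 ± 0.65, adjusted p = 0.000325) and Kcnt2 at 10.4 and 45.8 CPM (-2.61 ± 0.45, adjusted p = 0.00190). Kcnip4 at 3.21 and 17.6 CPM (-2.94 ± 0.77, adjusted p = 0.0200) and Kcnip3 at 8.03 and 6.17 CPM (-2.05 ± 0.58, adjusted p = 0.0284; 0.0664 on split UMIs) were the auxiliary subunits that were lower. Kcna1 was at 0 and 0.882 CPM (-4.77 ± 0.90, adjusted p = 0.00968; 0.496 with DESeq2). No UMI of Kcng1 or Kcnj11 was found in MGE interneuron-like cells, where a count of 0 allows up to 1.26 CPM over both libraries, which made Kcng1 at least 16.8-fold lower (adjusted p = 0.00101) and Kcnj11 at least 9.50-fold lower (adjusted p = 0.00236). Kcnd2, at 281 and 302 CPM, Kcnh7, at 357 and 572 CPM, and Kcnj6, at 8.03 and 11.5 CPM, were not called.

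Several members peaked outside the neuronal lineages, in classes too small for the test in most cases. Kcne2, an auxiliary subunit that partners Kcnq1 in epithelia, had 1500 UMIs in 18 and 9 hem or choroid plexus-like cells (1078 and 1361 CPM), against 2.75 CPM or less in excitatory neuron-like cells and both progenitor classes. Kcnj13, an inward rectifier of transporting epithelia, was at 303 and 426 CPM there. Both libraries were high for these genes. Kcnj8, the vascular pore subunit of the ATP-sensitive channel, was at 423 and 404 CPM in 3 and 9 mural-like cells and had no UMI in RGC-like or IPC-like cells. Kcnq1 was at 64.7 and 94.6 CPM in 9 and 18 endothelial-like cells. Kcnk13 was uneven in meningeal-like cells, at 64.1 CPM from 51 UMIs in replicate 2 and 2.87 CPM from 3 UMIs in replicate 4.

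**Figure D5:**
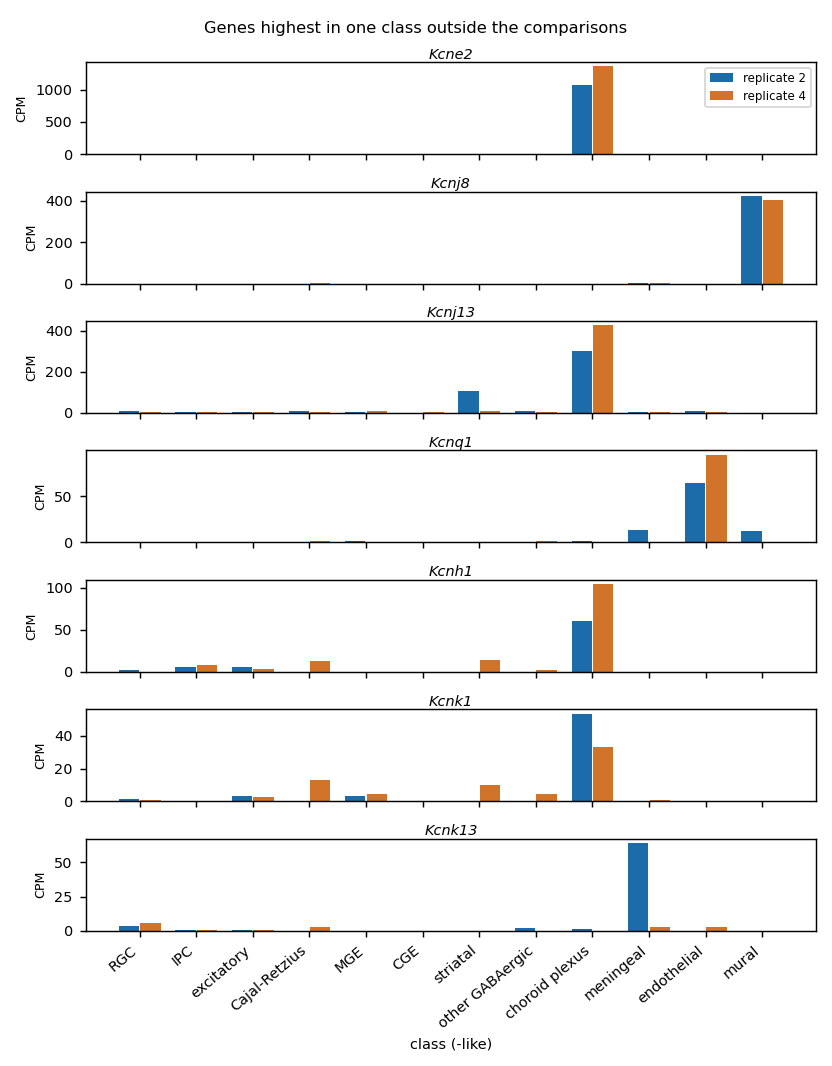
Level in CPM (bars from 0, with a scale for each gene) of 7 members whose highest level lies outside the neuronal lineages, in 12 classes (x axis), with a bar for each library. Kcne2 and Kcnj13 are highest in hem or choroid plexus-like cells and Kcnj8 in mural-like cells, in both libraries; the striatal projection neuron-like class holds 1 cell in replicate 2, where the Kcnj13 bar is 1 UMI.

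Among all 12 named classes, ordered by CPM pooled over both libraries, RGC-like cells were the highest for 5 members, IPC-like cells for 1, excitatory neuron-like cells for 9 and MGE interneuron-like cells for 9. Striatal projection neuron-like cells were the highest for 14, but with 1 cell in replicate 2 and 68 in replicate 4, and CGE interneuron-like cells for 11, with 5 and 27 cells. Cajal-Retzius-like cells, the Reln-expressing neurons of the marginal zone, were the highest for 7. Kcnh7 reached 1044 and 2306 CPM in them and Kcnb2 1119 and 1965 CPM, each above the excitatory neuron-like level in both libraries. These orders are descriptions without a test, and no share over all genes stands beside them. Some highest levels rested on few UMIs, such as 3 for Kcnab3 in Cajal-Retzius-like cells.

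Channel partner genes, listed with earlier results known, were followed in the same fits: sodium channel beta subunits, calcium channel beta and alpha-2-delta subunits, HCN and NALCN complex genes, DPP subunits of Kv4 channels, sodium channel-binding FGFs and ankyrin scaffold genes. Of the 29 listed 24 were tested. In excitatory neuron-like against RGC-like cells 18 of the 24 were higher, where 25.3% of all genes were, and 1 was lower, where 30% were. In IPC-like against RGC-like cells 8 were higher and 5 lower, where 14.0% and 20.1% of all genes were. In excitatory neuron-like against IPC-like cells 17 were higher and 1 was lower, where 18.4% and 18.2% of all genes were. In interneurons of the MGE-like class against excitatory neuron-like cells 8 were higher and 3 lower, where 8.32% and 10.8% of all genes were. Lower partner genes were thus close to the share over all genes in the steps from RGC-like to IPC-like cells and from excitatory neurons to interneurons. Ank3, the ankyrin that anchors sodium and Kv7 channels at the initial segment, rose from 32.8 and 60.4 CPM in RGC-like cells to 1156 and 1242 CPM in excitatory neuron-like cells (4.81 ± 0.37, adjusted p = 1.01e-06). Scn3b, a sodium channel beta subunit, rose from 0.803 and 1.44 CPM to 33.5 and 28.5 CPM (4.84 ± 0.42, adjusted p = 2.47e-06). The exception was Cacnb2, a calcium channel beta subunit, which fell from 233 and 268 CPM to 52.6 and 58.3 CPM (-2.05 ± 0.25, adjusted p = 2.79e-05).

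Cacna2d1, an alpha-2-delta subunit, was at 1302 and 1384 CPM in excitatory neuron-like cells and at 0.803 and 20.3 CPM in MGE interneuron-like cells (-7.03 ± 0.68, adjusted p = 3.77e-05). Dpp10, a DPP subunit of Kv4 channels, was at 50.1 and 101 CPM in excitatory neuron-like cells and at 3820 and 3877 CPM in MGE interneuron-like cells (5.66 ± 1.09, adjusted p = 0.00382). For both genes the classes lay far apart in each library. The pore subunit Kcnd2 that Dpp10 accompanies was not called between the same classes, as given above.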

How the data were processed

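Single-cell RNA-seq was measured in 2 libraries of 1 group. The authors made the deposited gene-by-barcode tables of raw UMI counts with Cell Ranger 7.0.0 on mm10 (submitters' processing notes), and these counts are not normalised. Whether intronic reads were counted is not given in the sources used here. Total UMIs were 40267872 and 49422007 over all deposited barcodes.

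The cells kept had 1000 or more genes and no more than 10% mitochondrial UMIs, 14 and 15 called doublets were left out, and the rest were clustered in scanpy 1.11.5 on 2000 variable genes (30 components, 20 neighbours, Leiden resolution 1) without the member and partner genes. A cluster took the name of the list with the largest share of its markers raised if at least 3 were, unless another list had more markers among the cluster's 10 leading genes, or the cluster was shallow and had no marker of its list among them. A shallow cluster of 63 cells with 10 of 12 RGC markers raised stayed unnamed for that reason. Raw counts were summed per class and library where at least 10 cells were present in both libraries, and 14 sums were tested with edgeR 4.0.16 (TMM, filterByExpr, quasi-likelihood test, Benjamini-Hochberg adjustment). DESeq2 1.42.0 was an alternative, in R 4.3.3. The script was tested on simulated data. Counting limits (a floor of 3 counts) cover counting error only.

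Both classes of a comparison came from the same libraries. Differences between libraries correlated at 0.137 to 0.367 over the 6 pairs of classes, and the library was tried as a block. Classes were made from the same UMIs that were tested, except in the split-UMI alternative.

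The text names, for each comparison, up to 10 members per direction with the largest change among those called with the same sign in both libraries, and a list of sodium, calcium and Kv members whatever their result. Values of some members are not reported here. The members and lists were chosen with earlier results of these data known. RefSeq GRCm38.p6 gave gene locations for 77 members.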

Additional observations from a re-analysis of the deposited data

Results flagged for a closer look

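Barcodes left out by the cell filter and the doublet call also held member UMIs, above the limit that a count of 0 allows. These were 11777 in 515 barcodes of replicate 2 and 7443 in 633 barcodes of replicate 4. Unnamed cells and classes with too few cells were outside the comparisons too but are counted here as retained. Of these barcodes 442 and 423 had under 1000 genes. Member UMIs made up 0.451% and 0.273% of their UMIs, against 0.440% and 0.453% in the retained cells. No cause was tested.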

How the results depend on the processing

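The 122 calls of members gave 1685 recomputed fold changes under up to 14 alternatives. Of these 1617 kept both direction and call, 68 kept the direction but lost the call, and none reversed; 35 of the 122 calls were lost in at least 1 alternative. The 244 fold changes with 1 replicate left out are the other library's own ratio, and all kept their sign. The calls were made on the same libraries, so this adds little, and no test was possible with 1 library. The library as a replicate block ended none of the 122 calls. Of 61 partner gene calls, 13 were lost in at least 1 alternative, and Fgf14 in IPC-like against RGC-like cells turned sign at resolution 0.5 (log2 0.18, adjusted p = 0.827). Counts moved by over 1.5 times as follows, and no cause was tested. With all genes or with the compared classes alone, the genes or classes in the fit differed by construction. Members lower in excitatory neuron-like than RGC-like cells (4) became 10 with all genes, 9 with the compared classes alone and 2 at resolution 0.5. Members lower in IPC-like than RGC-like cells (5) became 14 with all genes, 10 with the compared classes alone, 8 on split UMIs, 3 at resolution 0.5 and 8 without the IPC-like clusters with Slc17a6 among their leading genes (chosen after seeing the data), and the 20 higher became 13 on split UMIs. Members lower in excitatory neuron-like than IPC-like cells (1) became 7 with all genes, 2 with the replicate block, 5 with the compared classes alone, 5 on split UMIs, 4 at resolution 0.5, 2 at 500 genes per cell, 4 at 5% mitochondrial UMIs, 2 with doublets kept and 2 without those clusters, and the 32 higher became 51 with the compared classes alone. Members lower in the MGE class than in excitatory neurons (12) numbered 19 with all genes. The count filter over 7 classes left out 26 of the 77 members, and with the compared classes alone up to 73 were tested.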

Other observations

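Cacna1e, which was tested above in neurons, was also found in endothelial-like cells, at 442 CPM from 130 UMIs in 9 cells of replicate 2 and at 115 CPM from 45 UMIs in 18 cells of replicate 4. Meningeal-like cells held 49.0 and 158 CPM of the same gene. Kcnip4 was at 343 and 365 CPM in hem or choroid plexus-like cells, from 294 and 154 UMIs, above its level in excitatory neuron-like cells of 52.8 and 103 CPM. Kcnq5 was at 157 and 508 CPM in mural-like cells, from 13 and 162 UMIs in 3 and 9 cells. These classes held too few cells for the test, except the meningeal-like class, and no difference was tested here.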
